A study of Mus musculus with 5 samples.

Results

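The transcripts followed here are those of 10 cathepsins other than cathepsin K: Ctsa, Ctsb, Ctsc, Ctsd, Ctsf, Ctsh, Ctsl, Ctso, Ctss and Ctsz. They were chosen by symbol from the rows whose platform annotation names exactly 1 gene, out of 22180 genes with such a row, and each of the 10 had 1 row. The cells were mouse bone marrow-derived macrophages on their way to becoming osteoclasts, large cells with many nuclei that dissolve bone. Bone marrow came from wild-type mice aged 10 weeks, and the cells grew on plastic with 20 ng/ml M-CSF, which sustains macrophages, and 30 ng/ml RANKL, which drives osteoclast formation. The macrophages were sampled before differentiation (day 0), the cells under differentiation on days 1, 2 and 3, and cells labelled mature osteoclasts on day 5. Each day was measured on 1 Affymetrix array, 5 in all, which leaves no replicate spread and no p-value, and it is this number of arrays that limits precision. All cells after day 0 had received RANKL, so time in culture and the action of RANKL cannot be told apart. In a bulk culture, fewer cells of a type and less RNA per cell cannot be told apart either.

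Cathepsins are proteases that work mainly in the acid interior of the lysosome. Most belong to the papain family of cysteine proteases, while cathepsin D is an aspartic protease and cathepsin A a serine carboxypeptidase. They are made as inactive precursors, carried to the lysosome largely by mannose 6-phosphate receptors, and activated by removal of the propeptide. Macrophages use them to degrade what they engulf and to process antigens. Osteoclasts secrete cathepsin K onto bone to cut collagen, and the other cathepsins are better known for work inside the cell.

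The promoters shown are the 4 that hold the E-box CACGTG, the core of the element through which MITF-TFE factors bind lysosomal genes, and that of Ctsc. The Ctsc promoter does not hold it and was picked because Ctsc had the largest decrement. Those of Ctso, Ctss and Ctsz and the other promoter of Ctsa do not hold it either and are not shown. The sequences are from RefSeq, assembly GRCm38.p6, and run 5′ to 3′ from 250 bases before to 50 after an annotated transcript start, with each CACGTG in capitals. The stretch of Ctsf is chr19:4854915-4855214 on the plus strand, that of Ctsa chr2:164833523-164833822 on the plus strand, that of Ctsd chr7:142387778-142388077 on the minus strand, that of Ctsl chr13:64370471-64370770 on the minus strand and that of Ctsc chr7:88277835-88278134 on the plus strand.
Ctsf: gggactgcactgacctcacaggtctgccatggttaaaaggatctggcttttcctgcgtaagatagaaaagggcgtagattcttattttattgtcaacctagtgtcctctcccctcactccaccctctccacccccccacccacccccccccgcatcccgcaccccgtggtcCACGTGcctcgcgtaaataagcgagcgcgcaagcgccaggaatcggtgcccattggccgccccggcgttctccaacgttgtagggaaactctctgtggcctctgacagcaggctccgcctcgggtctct
Ctsa: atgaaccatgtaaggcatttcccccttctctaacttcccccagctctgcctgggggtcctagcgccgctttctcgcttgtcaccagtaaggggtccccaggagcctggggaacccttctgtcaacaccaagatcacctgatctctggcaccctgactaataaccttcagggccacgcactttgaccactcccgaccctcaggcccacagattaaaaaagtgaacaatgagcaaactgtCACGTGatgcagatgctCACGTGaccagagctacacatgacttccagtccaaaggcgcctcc
Ctsd: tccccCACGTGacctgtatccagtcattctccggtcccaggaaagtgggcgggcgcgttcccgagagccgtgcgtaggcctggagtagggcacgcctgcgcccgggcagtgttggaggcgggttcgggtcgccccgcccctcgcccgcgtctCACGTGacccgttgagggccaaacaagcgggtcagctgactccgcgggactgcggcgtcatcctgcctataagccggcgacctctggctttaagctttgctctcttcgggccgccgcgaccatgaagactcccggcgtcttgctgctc
Ctsl: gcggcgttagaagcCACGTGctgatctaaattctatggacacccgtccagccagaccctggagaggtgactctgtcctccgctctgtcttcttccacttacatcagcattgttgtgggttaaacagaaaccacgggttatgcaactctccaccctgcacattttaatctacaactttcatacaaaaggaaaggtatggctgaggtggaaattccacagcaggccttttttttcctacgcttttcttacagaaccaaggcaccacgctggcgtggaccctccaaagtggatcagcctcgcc
Ctsc: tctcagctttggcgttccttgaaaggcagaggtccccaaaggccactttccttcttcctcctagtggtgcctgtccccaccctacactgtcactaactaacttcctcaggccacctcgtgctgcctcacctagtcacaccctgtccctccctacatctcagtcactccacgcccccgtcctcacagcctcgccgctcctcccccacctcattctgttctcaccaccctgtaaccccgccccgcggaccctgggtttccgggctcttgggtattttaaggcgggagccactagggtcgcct

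For 8 of the 10 cathepsins RefSeq gave 9 promoters, since Ctsa had 2, and Ctsb and Ctsh had none in the table used. The palindrome CACGTG was present in 4 of these 9, against 7.15% of all 32851 promoters in the table. In Ctsf it began 79 bases before the start, and in Ctsl 236 bases before it. In Ctsd it began 245 and 98 bases before the start, and in Ctsa 12 bases before it and again at base 6 after it. The longer palindrome TCACGTGA, which contains CACGTG, was present in Ctsa and Ctsd and in 0.974% of all promoters. Searched on both strands, TGANTCA, the letters AP-1 factors bind, was in 0 of the 9 and in 7.81% of all. GAGGAAGT, a form of the PU.1 site, was in Ctsc and Ctss and in 3.2% of all. Of the 4 genes with the E-box, Ctsf was 3.62-fold and Ctsa 1.63-fold higher at day 5 than at day 0, and Ctsl was 1.73-fold and Ctsd 1.1-fold lower. Of the genes with a promoter but no E-box in it, Ctsz was 1.28-fold and Ctso 1.12-fold higher, and Ctsc was 2.90-fold and Ctss 1.17-fold lower. A match describes letters only, and binding was not measured.

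The cathepsins did not move as one group. At day 5 against day 0, 1 of the 10 was at least 2-fold higher, Ctsf, and 1 was at least 2-fold lower, Ctsc, while 8 were neither. Among all 12049 measured genes, those whose mean over the 5 arrays reached 4.89 on the log2 scale, 6.78% were at least 2-fold higher and 6.56% at least 2-fold lower, so a count of 1 in 10 each way is close to the background. At a size of 1.5-fold, 2 were higher (Ctsa and Ctsf), beside 13.3% of measured genes, and 3 lower (Ctsc, Ctsh and Ctsl), beside 14%. All 10 cathepsins were measured by that filter on level. Their median difference was -0.091 on the log2 scale, beside 0.00 for all measured genes. The span between a gene's highest and lowest day had a median of 0.85 over the cathepsins and 0.59 over measured genes.

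As a rough yardstick, the day 5 minus day 0 difference was compared between the 2 brightest rows of 500 measured genes with several rows. It disagreed with an SD of 0.59, or 0.42 for 1 row, which does not cover the spread between cultures. Both rows were read on the same arrays, so error shared by a whole array is not covered either. By size at day 5 against day 0, Ctsf (1.86), Ctsc (-1.54), Ctsl (-0.79), Ctsa (0.71) and Ctsh (-0.59) lay beyond 0.42. Ctsz (0.35), Ctss (-0.23), Ctso (0.17), Ctsd (-0.14) and Ctsb (-0.045) lay within it. The yardstick is 1 SD, so lying beyond it does not establish a change. Rows of a gene can also read different parts of its transcripts, so the yardstick is not measurement noise alone. Over measured genes the day 5 minus day 3 difference had a smaller SD, 0.24. Lying within the yardstick therefore does not establish that a gene was unchanged. The share of measured genes beyond 0.42 was not counted. At the larger size of 1.5-fold, 13.3% of measured genes were higher and 14% lower. Each cathepsin had a single row, so no second row could be set beside it.

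**Figure D1:**
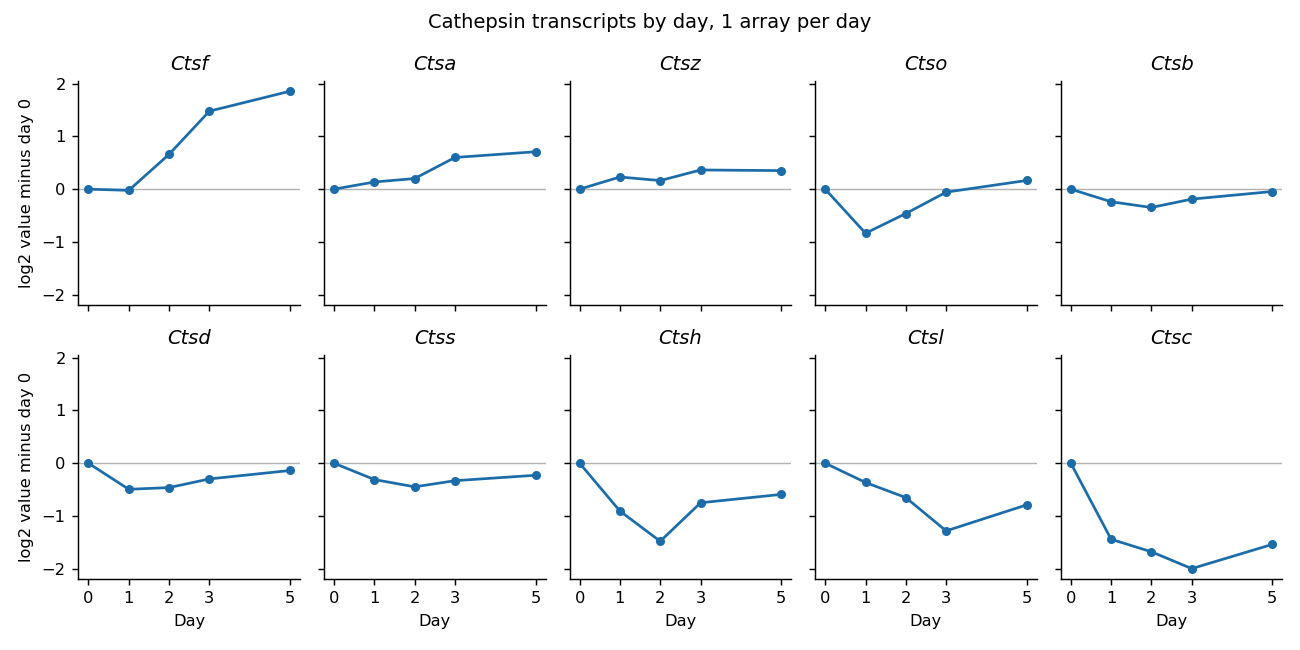
Log2 value minus the day 0 value (vertical axis) against day of culture (horizontal axis) for the 10 cathepsins, 1 array per day, in order of their day 5 difference. At day 5 Ctsf stood at 1.86 and Ctsc at -1.54, while Ctsb (-0.045), Ctsd (-0.14) and Ctss (-0.23) had dipped and come back towards day 0.

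Among the endopeptidases, which cut within protein chains, the clearest difference was in Ctsf, a cysteine protease with an unusually long propeptide. Its log2 values were 5.99 at day 0, 5.96 at day 1, 6.64 at day 2, 7.46 at day 3 and 7.84 at day 5. Days 0 and 1 were level and each later day stood above the one before it. At day 5 it was 3.62-fold higher than at day 0, and 2.32% of measured genes had a difference at least as high. The step of day 2 against day 1 was 0.68, that of day 3 against day 2 was 0.82 and that of day 5 against day 3 was 0.38, so the difference was built over several days after the first. Its mean, 6.78, lay below 7.11, the 75th percentile of the row means.

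Ctsl, a broad endopeptidase of the lysosome that also trims other proteins, was lower on every later day than at day 0. Its values were 11.98, 11.62, 11.33, 10.70 and 11.20 at days 0, 1, 2, 3 and 5. The lowest value was at day 3, where it was 2.43-fold lower than at day 0. At day 5 it was 1.73-fold lower than at day 0 and stood at 0.49 against day 3 on the log2 scale, and 2.75% of measured genes had a day 5 minus day 3 difference at least as high.

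Ctss, the endopeptidase that removes the invariant chain from MHC class II molecules, varied little. It had 12.95, 12.64, 12.50, 12.62 and 12.72 at days 0, 1, 2, 3 and 5, a span of 0.45. Ctsb, which cuts both within chains and at carboxyl ends, had 13.35, 13.11, 13.00, 13.16 and 13.31 on the same days, a span of 0.35. Both were highest at day 0 and lowest at day 2. After each row was centred on its own mean, these were the closest pair among the 10 cathepsins, with a root mean square distance of 0.063 over the 5 arrays. Next came Ctsb with Ctsd, at 0.082, and Ctsd with Ctss, at 0.092. The profiles were not scaled, so rows that vary little lie close by this measure, and Ctsd spanned only 0.49. The closeness of these 3 may therefore reflect their small spans.

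Ctsd, the aspartic endopeptidase that helps to activate other lysosomal proteins, had 12.22, 11.73, 11.76, 11.93 and 12.09 at days 0, 1, 2, 3 and 5. Its lowest day was day 1, at -0.49 against day 0, and each later array was higher than the one before. At day 5 it was 1.1-fold lower than at day 0 and 1.28-fold higher than at day 1, both under the 2-fold size.

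The exopeptidases, which trim chains from their ends, held the largest decrement. Ctsc, the dipeptidyl peptidase that activates serine proteases of immune cell granules, had 11.66 at day 0 and then 10.22, 9.99, 9.67 and 10.13 at days 1, 2, 3 and 5. The day 0 array stood above the others, which lay between 9.67 and 10.22. At day 5 it was 2.90-fold lower than at day 0, and 2.50% of measured genes had a difference at least as low. Most of this was present after 1 day: at day 1 Ctsc was 2.71-fold lower than at day 0, and at day 5 it stood at -0.097 against day 1 on the log2 scale. At day 1, Ctsc alone of the 10 was at least 2-fold lower than at day 0, as were 4.17% of measured genes, and 0 were at least 2-fold higher, as were 2.91%.

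Ctsh, an aminopeptidase that can also cut within chains, had 10.25, 9.34, 8.77, 9.50 and 9.66 at days 0, 1, 2, 3 and 5. It was lowest at day 2, 2.79-fold lower than at day 0, and 1.51-fold lower than day 0 at day 5. At day 2, Ctsh and Ctsc were the 2 cathepsins at least 2-fold lower than at day 0, beside 5.25% of measured genes, and 0 were at least 2-fold higher, beside 5.18%. At day 3, Ctsc and Ctsl were at least 2-fold lower and Ctsf at least 2-fold higher than at day 0, beside 7.5% and 7.29% of measured genes.

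Ctsz, a carboxypeptidase also called cathepsin X, had 12.35, 12.58, 12.51, 12.71 and 12.70 at days 0, 1, 2, 3 and 5. All later days were above day 0, by at most 0.36. Ctsa, the serine carboxypeptidase that also protects beta-galactosidase and neuraminidase 1 in a complex, had 11.87, 12.01, 12.07, 12.47 and 12.58 on those days. Its 5 arrays ran upward in the order of days, and at day 5 it was 1.63-fold higher than at day 0, with 10.9% of measured genes at least as high. Ctso, a less studied cysteine cathepsin, had 7.83, 6.998, 7.37, 7.78 and 7.998. It dipped at day 1, where it was 1.78-fold lower than at day 0, and its day 5 value stood 0.999 above day 1 on the log2 scale but 0.17 above day 0. That last sign turned to -0.10 when the arrays were centred on reference genes. The centring used the median of their levels, set by different genes at day 0 and day 5, so this turn carries no weight.

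The first day and the last step were compared across the cathepsins. Among measured genes, 43.2% were below day 0 at day 1 by any size, 49.1% were above it and the rest were equal on both arrays. Of the 10 cathepsins 8 were below day 0 at day 1, and the exceptions were Ctsa and Ctsz. Of those 8, Ctsc (-1.44), Ctsh (-0.91), Ctso (-0.83) and Ctsd (-0.49) lay beyond the yardstick of 0.42. That yardstick was worked out for day 5 against day 0 and not for the other pairs of days. At day 5 Ctso stood above its day 1 value by 0.999, beyond the yardstick. Ctsd (0.36) and Ctsh (0.32) stood above day 1 by less than the yardstick, and Ctsc (-0.097) did not stand above it. The median difference over the 10 was -0.34 at day 1, -0.45 at day 2, -0.24 at day 3 and -0.091 at day 5 against day 0. Between days 3 and 5, 9 of 10 were higher at day 5, beside 45.8% of measured genes (45% were lower and the rest equal), and Ctsz was at -0.012. These last steps were small, with a median of 0.16 against an SD of 0.24 over measured genes, and 0 of 10 reached 2-fold, beside 0.158% of measured genes that were higher and 0.116% that were lower.

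With day 1 as the starting point the picture at day 5 was different for several genes. Against day 1, 8 of 10 were higher by any size, beside 44% of measured genes (46.5% were lower and the rest equal), and the median of the 10 was 0.25. Ctsf was again the gene at least 2-fold higher at day 5, beside 6.3% of measured genes, Ctso lay just under that size at 0.999, and 0 were at least 2-fold lower, beside 6.73%. Ctsd (0.36) and Ctsh (0.32) stood above day 1 although they stood below day 0, while Ctsl (-0.42) was below both. The comparisons with day 0 share the day 0 array, so their values for a gene are not independent.

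**Figure D2:**
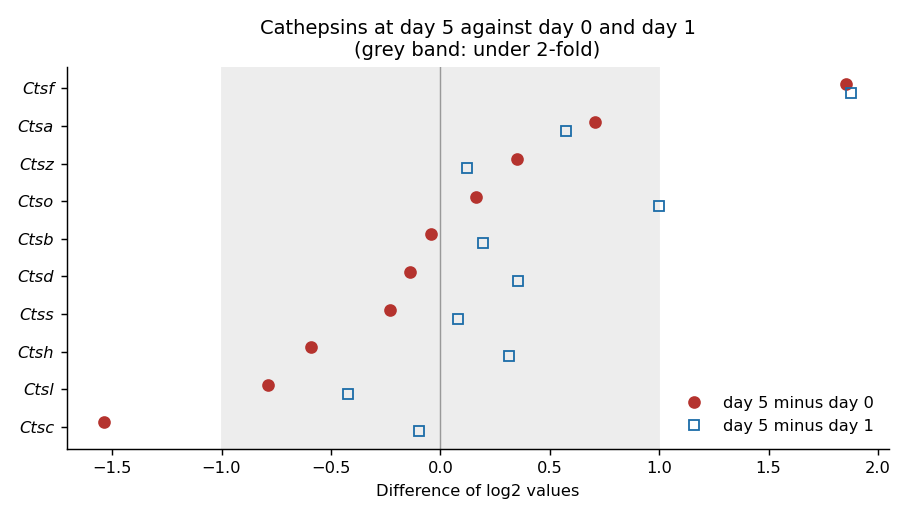
Difference of log2 values (horizontal axis) for each cathepsin (rows), as day 5 minus day 0 (filled red circles) and day 5 minus day 1 (open blue squares), from single arrays, with differences under 2-fold inside the grey band. Ctsf lies beyond the band by both measures, and Ctsc lies beyond it by day 5 minus day 0 (-1.54) but at -0.097 by day 5 minus day 1.

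Other groups of lysosomal genes were set beside the cathepsins. Of 33 measured lysosomal hydrolases and membrane proteins, 5 were at least 2-fold higher at day 5 than at day 0, 0 lower and 28 neither. Of all measured genes, 6.78% were higher and 6.56% lower by that size. The median of the 33 was 0.14. Of the 5 higher ones, the 3 other than Arsb and Smpd1 lay between 1.04 and 1.05. With arrays centred on reference genes the higher count was 2 and the median of the 33 was -0.13. That centring used the median of the reference levels, set by Sdha at day 0 and by Polr2a at day 5. The reference genes' own differences had a median of -0.0065, so these values do not show an effect of array scaling. The sulfatase Arsb (2.35) and the sphingomyelinase Smpd1 (2.09) were highest, and the membrane protein Scarb2 (-0.55) and the thioesterase Ppt1 (-0.51) were lowest. Their median was -0.37 at day 1 and -0.14 at day 2, so this list too was lowest on the early days, by its median. It stood 0.58 above day 1 at day 5, beside 0.25 for the cathepsins. Of 6 other lysosomal peptidases 0 were higher, 0 lower and 6 neither (median 0.091), with Tpp1, a tripeptidyl peptidase, at 0.50, Dpp7, a dipeptidyl peptidase, at 0.27, the asparaginyl endopeptidase Lgmn at -0.77 and Prcp, a carboxypeptidase, at -0.27. No test of these differences between lists could be made with 1 array per day.

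**Figure D3:**
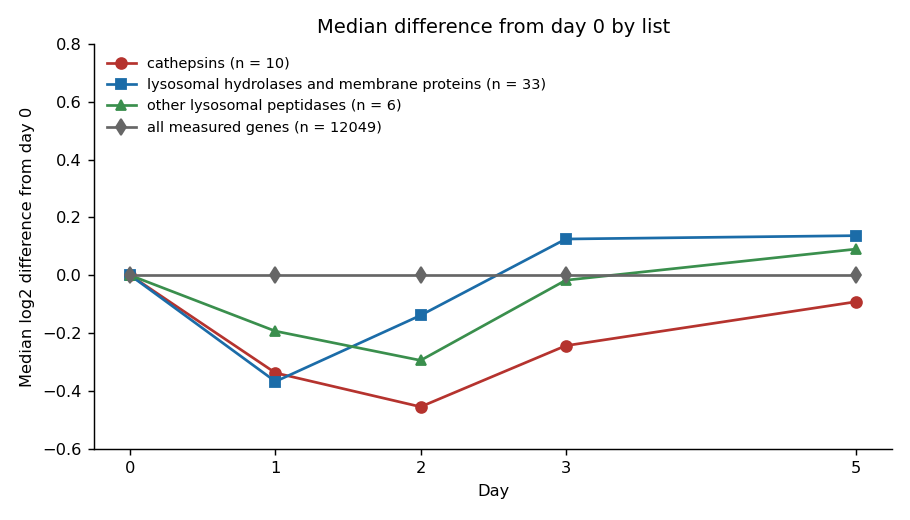
Median log2 difference from day 0 (vertical axis) against day (horizontal axis) for the 10 cathepsins, 33 lysosomal hydrolases and membrane proteins, 6 other lysosomal peptidases and all 12049 measured genes, from 1 array per day. The cathepsin median is lowest at day 2 (-0.45) and near day 0 at day 5 (-0.091), and the median of all measured genes stays at 0.00.

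Cathepsin K, the osteoclast's collagenase, differed by far more than any of the 10. Ctsk had 6.54, 10.02, 12.65, 13.11 and 13.29 at days 0, 1, 2, 3 and 5, and each later array was higher than the one before. At day 1 it was already 11.2-fold above day 0, when Ctsa and Ctsz were 1.1-fold and 1.17-fold above day 0 and the other 8 were below it. Of the 12 other genes of the family looked for, including the placental ones, 10 lay below the level filter, and the measured Ctse (0.086) and Ctsg (-0.51) were neither higher nor lower by 2-fold at day 5 against day 0.

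Protein inhibitors of cathepsins split into secreted and cytosolic cystatins, which differed little, and the Ctla2 genes, which were lower. Ctla2a and Ctla2b encode proteins that resemble the propeptide of cathepsin L and inhibit cysteine proteases of its type. Ctla2a had 10.60, 8.16, 6.30, 4.88 and 5.69 at days 0, 1, 2, 3 and 5, and was 29.9-fold lower at day 5 than at day 0. Ctla2b had 12.66, 9.79, 9.85, 9.85 and 10.61, 4.14-fold lower at day 5 than at day 0 but 0.82 above day 1 on the log2 scale. These are close copies, and whether their rows share signal was not tested. The secreted cystatin C gene Cst3 was at 0.26 and the cytosolic Cstb at 0.47. Of the 5 measured inhibitors, 2 were at least 2-fold lower and 0 higher, beside 6.56% and 6.78% of measured genes. The 5 others, Cst6, Stfa1, Stfa2, Stfa2l1 and Stfa3, lay below the filter.

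Genes that send cathepsins to the lysosome and mature them included 2 that were at least 2-fold higher at day 5 than at day 0, out of 12 measured, with 0 lower. Of all measured genes, 6.78% were higher and 6.56% lower. Gnptab, a subunit of the enzyme that starts the mannose 6-phosphate tag, had 9.87, 9.74, 11.06, 11.83 and 11.85 at days 0, 1, 2, 3 and 5. It was level on the first 2 arrays and 3.94-fold higher at day 5 than at day 0. Gga2, an adaptor that packs the tagged enzymes at the Golgi, had 9.40, 10.74, 10.81, 11.01 and 11.04, and most of its 3.12-fold difference was present at day 1. The receptor Igf2r was at 0.99, and the smaller mannose 6-phosphate receptor M6pr at 0.12. Sortilin, Sort1, a sorting receptor that works without the tag, was at -0.95 (1.03 above day 1), and Lgmn, which matures several cathepsins, at -0.77 (0.54 above day 1). The median of the 12 was -0.10.

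**Figure D4:**
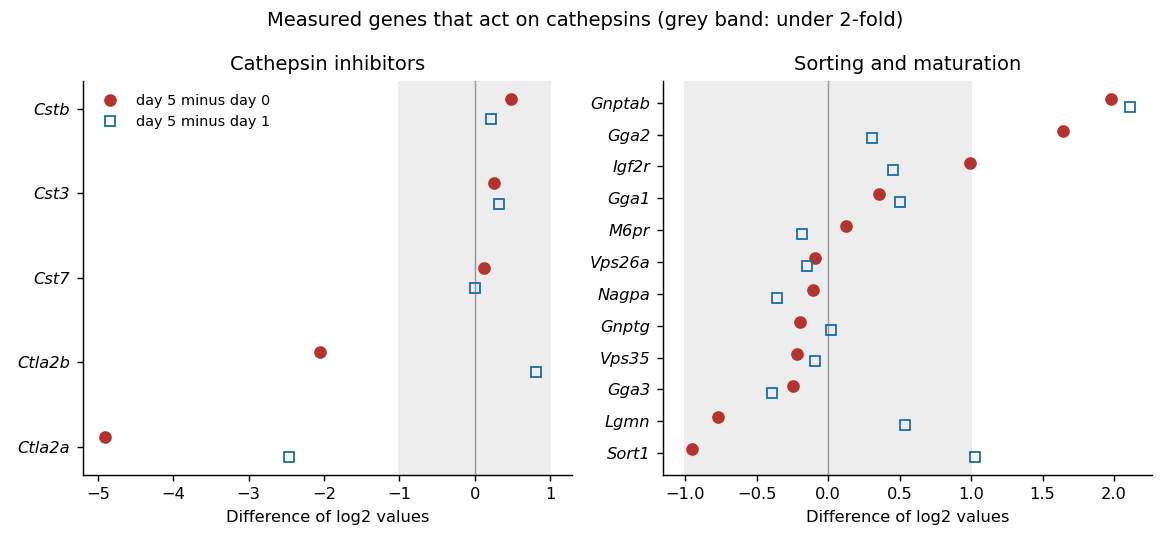
Difference of log2 values (horizontal axis) for the 5 measured cathepsin inhibitors (left) and the 12 measured sorting and maturation genes (right), as day 5 minus day 0 (filled red circles) and day 5 minus day 1 (open blue squares), from single arrays. Ctla2a lies furthest left in its panel at -4.90 by day 5 minus day 0, and Gnptab furthest right in its panel at 1.98.

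Partners and substrates of several cathepsins were followed as well. Neu1, held in a complex by cathepsin A, was at 0.099 at day 5 against day 0, the sphingolipid activator precursor Psap at 0.13 and progranulin, Grn, at -0.076, and all 3 were neither. Among proteases that cathepsin C activates, the neutrophil proteases Elane (-1.27) and Prtn3 (-1.20) were at least 2-fold lower at day 5 than at day 0, Ctsg was not, and 4 others lay below the filter. At day 5 Elane (4.52) and Prtn3 (4.45) had values under the filter level of 4.89, so the size of these differences is uncertain. Of the granulocyte markers, a list that holds Elane too, 4 of 8 measured ones were at least 2-fold lower at day 5 (Elane, S100a9, Ngp and Ltf) and 0 higher. Of all measured genes, 6.56% were lower and 6.78% higher. The sum of all 10 markers on the linear scale was 794 at day 5 and 1687 at day 0, and Ly6g and Retnlg lay below the filter. At day 1, 0 of the 8 were at least 2-fold lower than at day 0, beside 4.17% of measured genes. The part of the granulocyte markers in the Ctsc difference was not tested. At day 5 against day 0 the 4 MITF-TFE factor genes were neither, with Tfec at 0.33, Mitf at 0.047, Tfeb at 0.025 and Tfe3 at -0.44. Mitf was not level between those days, with 9.66, 9.83, 10.55, 9.72 and 9.70 at days 0, 1, 2, 3 and 5.

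For the 4 cathepsins whose values spanned 1 or more on the log2 scale, the 3 measured genes with the closest profiles were found by root mean square distance over the 5 centred arrays. Nearest to Ctsc were the anaphylatoxin receptors C5ar2 (0.073) and C3ar1 (0.081) and the kinase Stk10 (0.084). Ctsf had as nearest genes Vwf (0.074), which encodes von Willebrand factor, Fbxo32 (0.090), a ubiquitin ligase subunit, and Hyal3 (0.11), of the hyaluronidase family. The nearest to Ctsh were the ubiquitin ligase Wwp1 (0.065), Tpd52 (0.066) and the adaptor Gab3 (0.076). For Ctsl they were the RNA-binding Celf2 (0.038), the zinc transporter Tmem163 (0.055) and the efflux pump Abcc4 (0.057). With 5 arrays, many genes can share a profile, and the measure says nothing of a link between them.

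The labels were checked against marker genes. All 10 osteoclast markers were at least 2-fold higher at day 5 than at day 0, beside 6.78% of measured genes. All 9 macrophage markers were measured, and 3 were at least 2-fold lower at day 5 than at day 0 (Mrc1, Fcgr1 and Cx3cr1), 0 higher and 6 neither. Of all measured genes 6.56% were lower. At day 1, 5 of the 9 were at least 2-fold lower than at day 0 (Adgre1, Mrc1, Fcgr1, Mertk and Cx3cr1), beside 4.17% of measured genes. At day 5, 2 of the 9 were at least 2-fold higher than at day 1, beside 6.3%. The part of the macrophage markers in the cathepsin differences was not tested. None of the 5 B cell markers with a row passed the filter, nor did 4 of 6 T and NK cell markers, 4 of 6 stromal and osteoblast markers and 3 of 6 megakaryocyte and mast cell markers, while 5 of 7 dendritic cell markers did. Named after their values were seen, the markers 2-fold apart in these lists were the stromal Dcn, at 1.93 at day 5 and 3.26 at day 1 against day 0, the dendritic Itgax, at 1.33 and 1.497, and the platelet chemokine Ppbp, at -1.84 and -1.34. Their part in the cathepsin differences was not tested either. The median log2 value of an array was 4.88 at the lowest and 4.92 at the highest.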

How the data were processed

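The deposited values are log2 intensities. Per the submitters' processing notes, the authors used RMA, the oligo package and R 3.4.0. RMA subtracts background, applies quantile normalisation and summarises probes by median polish. Per the labels, biotinylated cDNA was made from 5 ng of total RNA with an Affymetrix WT Pico kit. Which summary level, probe annotation and build lay behind them is not given in the sources used here. Quantile normalisation hides a shift of all genes between days.

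Of 41345 rows, 23521 named 1 gene, 1814 several and 16010 were unlisted in the platform annotation. Where a gene had several rows, the one with the highest mean was used. All 10 cathepsin symbols matched RefSeq of GRCm38.p6 by Entrez identifier. A gene was measured when its mean reached the median of the row means, 4.89. Differences of log2 values between arrays were counted at 1 (2-fold). Groups came from the time in the labels. Counting and profile matching were tested on simulated data, with planted differences above the 2-fold cut and noise below the yardstick. This checks the code and not its accuracy on these data. Members and lists were chosen with earlier results of these data known. All 10 cathepsins are named. From each pathway list the rule takes the 2 largest increments and 2 largest decrements among measured members and those 2-fold apart (of the hydrolases only the 2 largest each way). Marker lists are given by counts. For cathepsins spanning 1 or more, the 3 nearest profiles are named. Alternatives changed the row rule, array scaling, days compared, level filter and size. Python 3.11.15, numpy 2.4.6, pandas 2.3.3 and matplotlib 3.10.9 were used.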

Additional observations from a re-analysis of the deposited data

How the results depend on the processing

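The count of cathepsins at least 2-fold higher at day 5 was 1 under 6 of 8 alternatives. It was 0 with the level filter at the 75th percentile of row means, which removes Ctsf, and 2 at a size of 1.5-fold (Ctsa added). The count at least 2-fold lower was 2 with arrays centred on 11 reference genes (Ctsl added, at -1.06), 0 with day 1 in place of day 0, 2 with day 3 in place of day 5 (Ctsl added) and 3 at 1.5-fold (Ctsh and Ctsl added). The cathepsin median ran between -0.36 and 0.25 over the alternatives, turning positive only with day 1 in place of day 0. The value of -0.36 came with arrays centred on the reference genes. Centring on the reference genes moved all day 5 minus day 0 differences by -0.27 (Sdha, at 1.10, and Tubb5, at -1.12, were the 2-fold apart ones among these reference genes), more than the median of the other peptidases (0.091). It took the count of higher hydrolases to 2, against 5, an alternative added after the data were seen. Over all measured genes it gave 566 higher and 1257 lower, against 817 and 791 as deposited. With the 75th percentile filter these counts were 511 and 501, and at 1.5-fold 1605 and 1686. Ctsf kept its sign under all alternatives run on it, between 1.48 and 1.89. Ctsc ran between -1.997 and -0.097. The value of -0.097 came with day 1 in place of day 0 and lay within the yardstick, so its sign carries no weight. The Ctsc decrement at day 5 was therefore seen only against the single day 0 array. At day 3 Ctsc stood at -0.56 against day 1, under the 2-fold size. No paired analysis was possible because each day had 1 array. With no replicates, the spread between cultures is unknown, and each value rests on its single arrays.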

Other observations

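Genes next to a cathepsin on its chromosome, by the order of protein-coding genes in RefSeq of GRCm38.p6, were looked at after the main values were seen. Ctss and Ctsk are neighbours, and at day 5 against day 0 Ctss was at -0.23 on the log2 scale while Ctsk was at 6.75. Ctsc lies next to Rab38, a small GTPase of lysosome-related organelles, and was at -1.54 while Rab38 was at 5.87. Neurl2, a neighbour of Ctsa, was at 1.76 beside 0.71 for Ctsa, and Pltp, its neighbour on the other side, was at -0.14. Fdft1, a sterol synthesis enzyme next to Ctsb, was at -1.09 beside -0.045 for Ctsb. Cdk20, a kinase next to Ctsl, was at -1.15 beside -0.79 for Ctsl, and Pdgfc, a growth factor gene next to Ctso, was at 0.99 beside 0.17 for Ctso. The other measured neighbours, Syt8 of Ctsd, Prxl2c of Ctsl and Nelfcd of Ctsz, were at -0.23, 0.22 and -0.23. Both neighbours of Ctsf, Ccdc87 and Actn3, lay below the level filter. Of the 10 cathepsins, 6 had their highest value at day 0, 3 at day 5 (Ctsa, Ctsf and Ctso) and 1, Ctsz, at day 3.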
